A study of Mus musculus with 6 samples.

Results

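The genes described here repair broken and crosslinked DNA by homologous recombination and by the Fanconi pathway. They are a list of 37 genes, named by their known role and drawn up when earlier results of these data were known, out of 19938 genes that a probe set with a single gene symbol represents on the arrays. Each gene was represented by its probe set with the highest mean over the 6 arrays. Such a probe set was used for 35 of the 37. Xrcc2 and Rbbp8 were not analysed here. Fancb and Fancm lay below the 30th percentile of gene means and were left out as dim, so 33 of the 37 were tested.

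Recipients were female C57BL/6J mice injected with 2000000 bone marrow cells of the congenic strain B6.SJL-Ptprca, whose CD45.1 antigen distinguishes donor cells from the CD45.2 cells of the host. In the UV-donor group (3 arrays) the donor's shaved back had been exposed to broadband ultraviolet radiation, at up to 8 kJ/m2. In the naive-donor group (3 arrays) the donor was naive. Mice were 6 to 10 weeks old when irradiated, unless stated otherwise by the submitters. Marrow of the recipients then grew for 5 days with GM-CSF and IL-4 (10 ng/ml each), which turns marrow cells into dendritic cells, and magnetic beads enriched cells bearing CD11c to above 95%. Neither the share of donor cells in the recipients' marrow nor any conditioning of the recipients is given in the sources used here. The animal described as exposed to ultraviolet radiation was the donor. Nothing in the labels ties the preparations to separate recipients, and p-values therefore cover no more than the scatter of these preparations, which may be technical.

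A DNA double-strand break is sensed by the kinase ATM together with the MRE11, RAD50 and NBN complex, which starts to trim the broken ends to single strands. Single-stranded DNA activates ATR, and the BRCA proteins prepare it for strand invasion, in which it pairs with the matching sequence of the sister chromatid. Fanconi proteins recognise crosslinks that block replication forks and attach ubiquitin to the FANCD2 and FANCI pair, which recruits nucleases. Recombination needs a sister chromatid, so many of these genes are known to be transcribed mostly in cells that copy their DNA.

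The 6 arrays were closely correlated, with Pearson values of 0.995 to 0.997 within groups and 0.995 to 0.996 between them over all probe sets. Their distributions differed slightly by group. Array medians were 7.16 to 7.18 in the UV-donor group, against 7.19 to 7.23 in the naive-donor group. Interquartile ranges were 3.71 to 3.75 in the UV-donor group, against 3.61 to 3.68 in the naive-donor group. Of the listed dendritic cell markers, Itgax and Cd74 were the brightest. Itgax, which encodes CD11c, had a mean log2 signal of 13.73 in the UV-donor group and 13.77 in the naive-donor group, and Cd74, the class II invariant chain, had 13.59 in the UV-donor group and 13.54 in the naive-donor group. Other markers on that list were fainter, such as Zbtb46, with a mean of 8.84 over the 6 arrays. Flt3, a receptor of dendritic cell progenitors, was below the dim limit. The listed macrophage markers ranged from Cd68 at 13.15 to Vsig4 at 4.73, so brightness alone did not separate the 2 cell types. Over all 13956 tested genes limma called 24 (0.172%) as higher in UV-donor cells and 0 (0%) as lower, taking an adjusted p under 0.05 as a call. That count was 1 without UV-donor array 2, UV-donor array 3 or naive-donor array 1, 3 without naive-donor array 3, and 0 with all probe sets tested, and calls of marker genes given below rest on the same fit. An unadjusted p under 0.05 was reached by 9.6% in the higher and 5.49% in the lower direction.

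Most recombination and Fanconi genes had somewhat higher signals in the UV-donor group, and none passed the test. The mean log2 signal of the 33 tested genes was 8.56, 8.37 and 8.36 on UV-donor arrays 1, 2 and 3, against 8.15, 8.31 and 8.14 on naive-donor arrays 1, 2 and 3. UV-donor array 1 stood above the rest, and the naive-donor array 2 lay close to the other UV-donor arrays without overlapping them. Fancd2 showed the largest difference, at 1.54-fold, followed by the BRCA1 helicase gene Brip1 at 1.48-fold and the BRCA1 partner gene Bard1 at 1.45-fold.

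Values of 30 of the 33 tested genes were above, and those of 3 below, the naive-donor mean in UV-donor cells, where 50.6% of all tested genes were above it. The count of higher values was 28 after cyclic loess or quantile normalization. Limma called 0 of the 33 at an adjusted p under 0.05, with adjusted p-values from 0.105 to 0.966. At an unadjusted p under 0.05, 17 had higher values, against 9.6% of all tested genes, and 0 had lower values. The UV-donor and naive-donor arrays did not overlap for 15 of the 33, all higher in the UV-donor group, against 12.4% of all genes in that direction and 9.37% in the other, in which no repair gene lay. The median log2 difference of the 33 was 0.22, beside 0.0016 over all tested genes. With array medians centred, 19 of the 33 had higher values at an unadjusted p under 0.05. Over all genes that count was then 2052 higher and 302 lower, against 1340 higher and 766 lower as deposited.

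**Figure D1:**
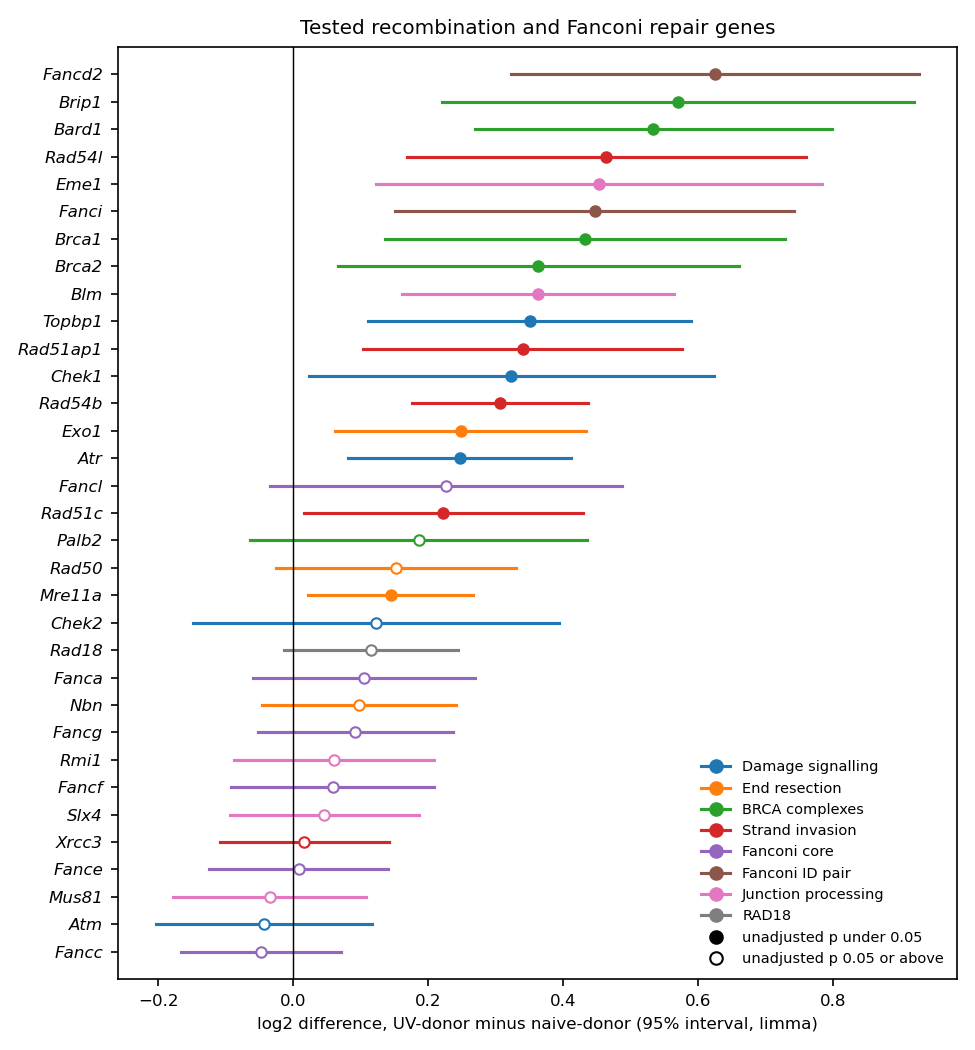
Log2 difference (x axis, UV-donor minus naive-donor) of each of the 33 tested repair genes, ordered by size, with limma's 95% interval and coloured by role. Filled points mark the 17 genes with an unadjusted p under 0.05, which reach down to Mre11a at 0.14, and none has an adjusted p under 0.05.

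The differences leaned on particular arrays. UV-donor array 1 was the highest of all 6 arrays for 25 of the 33 genes (75.8%), against 21.9% of all tested genes. Among the naive-donor arrays, array 2 was the highest for 27 of the 33 (81.8%), against 33.2% of all tested genes. Without UV-donor array 1, 14 of the repair genes had higher values at an unadjusted p under 0.05 (all tested genes 7.93%) and their median difference was 0.16. Without naive-donor array 2 the count was 22 (all tested genes 9.49%) and the median 0.29. Without naive-donor array 3 the count was 12 (all tested genes 7.78%) and the median 0.13. The other single arrays left out gave 14 to 20 (all tested genes 6.79% to 9.14%).

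**Figure D2:**
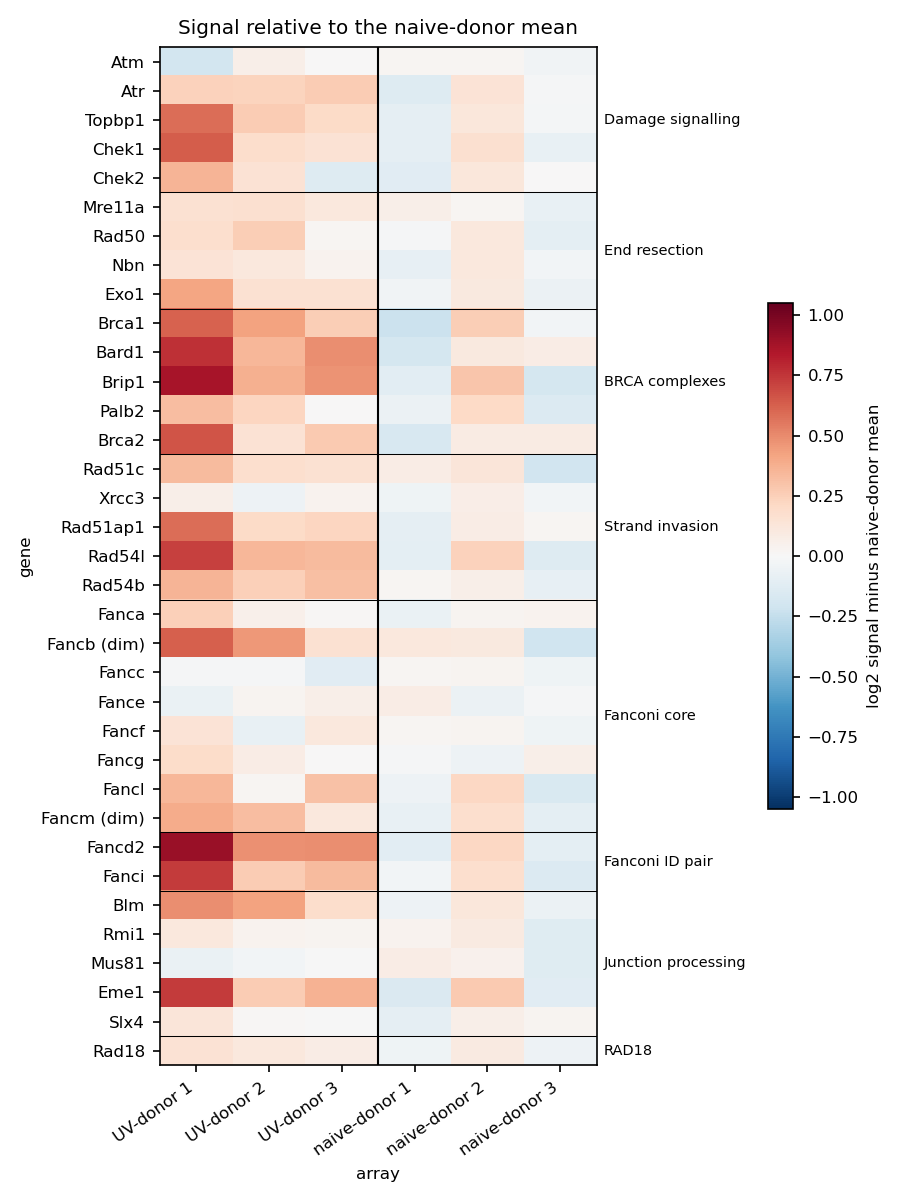
Signal of the 35 measured repair genes (rows, grouped by role) on each array (columns), as the log2 signal minus that gene's naive-donor mean. Red is higher and blue is lower, and the first column, UV-donor array 1, is the darkest red for Fancd2, Brip1 and Bard1, while Xrcc3, Fance and Mus81 stay near white on every array.

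Promoters of selected repair genes are shown, because many repair genes are known to be controlled by E2F. This transcription factor family turns on genes of DNA copying. RefSeq windows on GRCm38.p6 were found for 30 of the 35 measured genes, and the 250 bases before the table's start site were searched on both strands for E2F-type words. These were TTCCCGC as the first word, TTGGCGC as the second word, TTCGCGC as the third word and TTGCCGC as the last word, and their matches may overlap each other. Of the tested genes that hold such a word and have an unadjusted p under 0.05, the 4 of largest difference are printed, with Brip1 (largest difference without a word) and Fancf (a word but a difference of 0.059) for contrast. Fancd2, the gene of largest difference, had no window. The windows of Rad54l (0.46), Eme1 (0.45), Fanci (0.45) and Brca1 (0.43) hold no word. They are not printed, though these genes differed more than Brca2, Blm and Topbp1. Capitals mark the words. The windows are chr1:71102973-71103222, minus strand, for Bard1, chr5:150522371-150522620, plus strand, for Brca2, chr7:80534999-80535248, minus strand, for Blm, chr9:103305077-103305326, plus strand, for Topbp1, chr11:86201194-86201443, minus strand, for Brip1, and chr7:51862268-51862517, minus strand, for Fancf.
Bard1: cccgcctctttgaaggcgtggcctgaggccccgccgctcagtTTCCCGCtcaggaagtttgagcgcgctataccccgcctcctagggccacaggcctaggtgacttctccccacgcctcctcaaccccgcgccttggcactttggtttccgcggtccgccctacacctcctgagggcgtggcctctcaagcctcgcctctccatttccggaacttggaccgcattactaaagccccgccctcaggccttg
Brca2: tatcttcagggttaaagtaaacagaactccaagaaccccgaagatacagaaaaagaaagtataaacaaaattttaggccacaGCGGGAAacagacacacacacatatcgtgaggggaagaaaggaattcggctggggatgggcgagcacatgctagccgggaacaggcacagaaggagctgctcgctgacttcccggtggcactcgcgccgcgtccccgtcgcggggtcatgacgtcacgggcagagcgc
Blm: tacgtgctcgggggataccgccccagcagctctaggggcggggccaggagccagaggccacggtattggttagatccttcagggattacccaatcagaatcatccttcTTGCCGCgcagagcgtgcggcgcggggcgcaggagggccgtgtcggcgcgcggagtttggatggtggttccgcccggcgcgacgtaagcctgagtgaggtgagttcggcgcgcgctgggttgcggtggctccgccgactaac
Topbp1: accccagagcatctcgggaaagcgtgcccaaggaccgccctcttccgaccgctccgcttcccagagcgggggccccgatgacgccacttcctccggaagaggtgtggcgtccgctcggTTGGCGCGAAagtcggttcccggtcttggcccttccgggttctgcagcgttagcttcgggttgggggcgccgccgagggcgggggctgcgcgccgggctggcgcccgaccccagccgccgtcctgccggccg
Brip1: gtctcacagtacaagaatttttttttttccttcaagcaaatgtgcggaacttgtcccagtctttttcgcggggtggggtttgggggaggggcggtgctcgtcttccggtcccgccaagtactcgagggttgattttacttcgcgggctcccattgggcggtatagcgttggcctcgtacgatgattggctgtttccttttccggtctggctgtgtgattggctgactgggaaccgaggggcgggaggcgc
Fancf: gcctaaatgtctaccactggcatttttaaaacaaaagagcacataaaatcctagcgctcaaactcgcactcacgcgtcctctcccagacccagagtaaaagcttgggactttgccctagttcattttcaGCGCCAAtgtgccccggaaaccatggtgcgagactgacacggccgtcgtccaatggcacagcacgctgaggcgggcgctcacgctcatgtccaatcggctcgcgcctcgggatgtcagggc
In these windows the word begins 208 bases before the start site in Bard1, 168 in Brca2, 142 in Blm and 121 in Fancf. Topbp1 holds overlapping words that begin 132 and 129 bases before it. Of the 28 tested repair genes with a window, 9 held an E2F-type word (32.1%), against 14.9% of tested genes with a window and 7.89% of all 32851 windows. The median log2 difference was 0.22 for the 9 genes with a word and 0.19 for the others, and 5 of the 9 and 9 of the others had an unadjusted p under 0.05. By gene, counting a word in any of its windows, CCAAT was held by 15 of the 28 (53.6%, against 39.1% of tested genes). GGGCGG was held by 15 (53.6%, against 60.4%) and TTTGAA by 1, Bard1 (3.57%, against 12.8%). These matches are letters in a window and not measured binding.

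Among the damage signalling genes, the ATR branch differed more than the ATM branch in value, a contrast that was not tested. Topbp1, the activator of ATR, had log2 signals of 10.19, 9.86 and 9.80 on the UV-donor arrays, against 9.51, 9.72 and 9.58 on the naive-donor arrays. The groups did not overlap, and the difference was 0.35 (SE 0.10, limma adjusted p = 0.195). Atr itself had 8.28, 8.28 and 8.31 in the UV-donor group, against 7.91, 8.19 and 8.04 in the naive-donor group, a difference of 0.25 (limma adjusted p = 0.189). Here the 3 UV-donor arrays lay almost level and all above the naive-donor arrays. Chek1, the kinase that ATR activates to hold the cell cycle, had 8.09, 7.64 and 7.61 in the UV-donor group, against 7.36, 7.63 and 7.38 in the naive-donor group. One naive-donor array reached the UV-donor range, and the difference was 0.32 (limma adjusted p = 0.299).

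Atm, the kinase that responds to double-strand breaks, had 8.00, 8.26 and 8.20 in the UV-donor group, against 8.22, 8.22 and 8.16 in the naive-donor group. Its difference was -0.044 (95% interval -0.20 to 0.12), and 0.031 without UV-donor array 1. Chek2, the checkpoint kinase activated by ATM, differed by 0.12 (95% interval -0.15 to 0.39) and by 0.0060 without UV-donor array 1. Both intervals include 0, and the groups overlapped for both genes.

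End resection genes had small differences. Exo1, the exonuclease that extends the single strand, had 7.62, 7.37 and 7.37 in the UV-donor group, against 7.17, 7.31 and 7.14 in the naive-donor group, a difference of 0.25 (limma adjusted p = 0.221) with no overlap. Mre11a, the nuclease of the break-sensing complex, had 9.65, 9.66 and 9.60 in the UV-donor group, against 9.55, 9.51 and 9.41 in the naive-donor group. That difference was 0.14, small but without overlap (limma adjusted p = 0.264). Its partners Rad50 (0.15) and Nbn (0.097) overlapped between groups, with unadjusted p-values of 0.0834 and 0.158. A second Nbn probe set, not used in the test, differed by -0.014.

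Every one of the 5 genes of the BRCA complexes was higher in value in UV-donor cells, with a median difference of 0.43. Of these, 4 had no overlap (all tested genes 12.4% in that direction) and an unadjusted p under 0.05 (all tested genes 9.6%). Brip1, the helicase that binds BRCA1 and is also a Fanconi gene, had 8.57, 8.08 and 8.18 on the UV-donor arrays, against 7.60, 8.00 and 7.53 on the naive-donor arrays. The lowest UV-donor array was only slightly above naive-donor array 2. The difference was 0.57 (SE 0.15, limma adjusted p = 0.167), and 0.42 without UV-donor array 1. Bard1, which pairs with BRCA1 to form a ubiquitin ligase, had 8.26, 7.84 and 7.98 in the UV-donor group, against 7.31, 7.60 and 7.57 in the naive-donor group. This gave a difference of 0.53 (SE 0.12, limma adjusted p = 0.131) with a wider gap between the groups. Its 2 other probe sets differed by 0.30 and 0.13, so the size depended on the probe set and the direction did not.

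Brca1, which directs ends towards recombination, had 8.55, 8.35 and 8.19 in the UV-donor group, against 7.71, 8.19 and 7.91 in the naive-donor group. The lowest UV-donor and the highest naive-donor array were nearly equal, and the difference was 0.43 (limma adjusted p = 0.196). Brca2, which acts with BRCA1 in recombination, had 8.22, 7.71 and 7.84 in the UV-donor group, against 7.39, 7.64 and 7.64 in the naive-donor group, a difference of 0.36 (limma adjusted p = 0.255). Without UV-donor array 1 it was 0.21. Palb2, the bridge between BRCA1 and BRCA2, overlapped between groups and differed by 0.19 (95% interval -0.065 to 0.44).

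**Figure D3:**
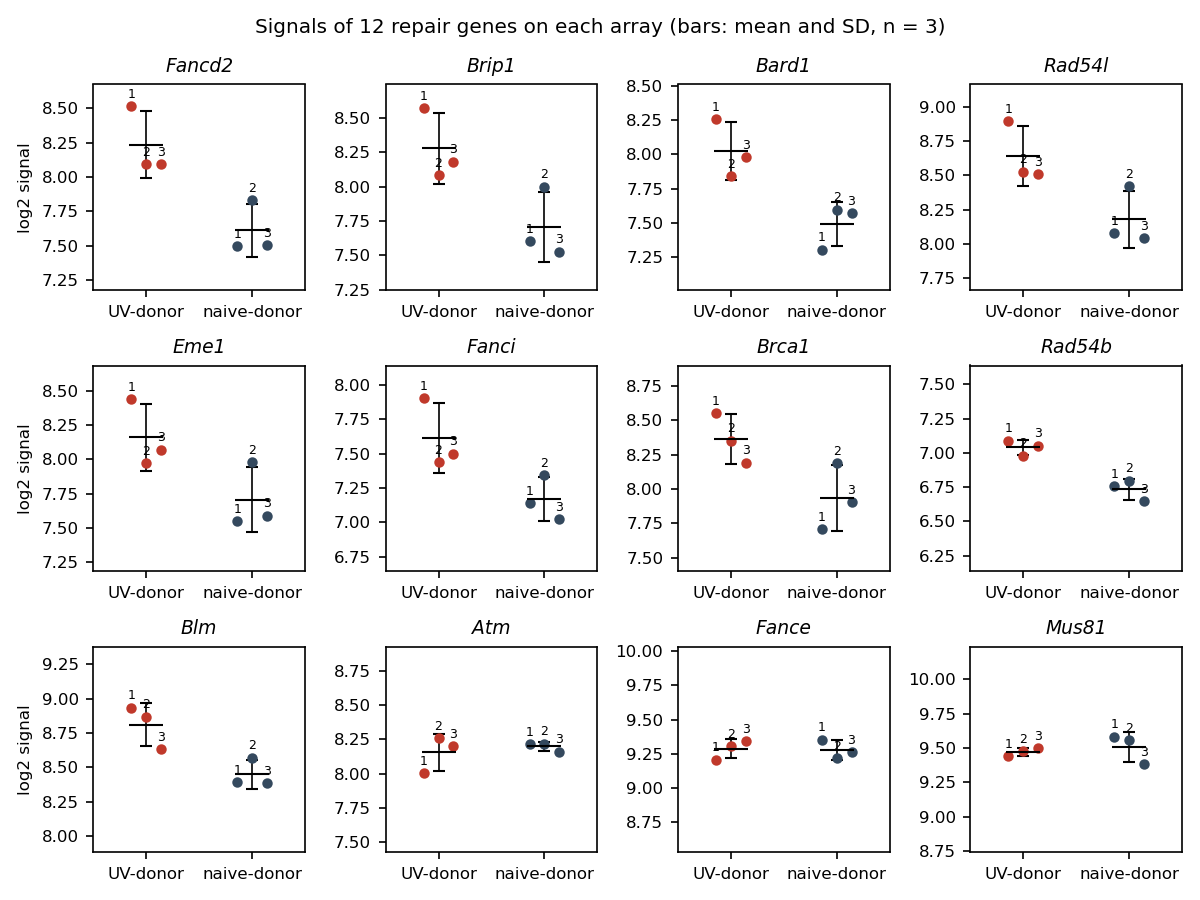
Log2 signal (y axis, the same span of 1.5 log2 units in each panel) of 12 repair genes chosen after their values were seen, 9 of larger difference and 3 (Atm, Fance, Mus81) of little difference. Points are arrays numbered by replicate, and bars give the mean and SD of 3 arrays. UV-donor array 1 is the top point for all of the first 9 genes, and naive-donor array 2 is the top naive-donor point.

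Among the genes of strand invasion, 4 of 5 tested genes had higher values at an unadjusted p under 0.05, without overlap of the groups. Of all tested genes, 9.6% reached that p and 12.4% had no overlap in that direction. Rad54b, a DNA motor protein, had 7.09, 6.98 and 7.05 in the UV-donor group, against 6.76, 6.80 and 6.65 in the naive-donor group. Arrays within each group lay close together, and Rad54b had the smallest p of all 33 genes, with a difference of 0.31 (SE 0.057, unadjusted p = 0.000603, limma adjusted p = 0.105). Leaving out single arrays gave 0.26 to 0.34. Rad54l, a related motor that helps invade the sister strand, had 8.90, 8.53 and 8.51 in the UV-donor group, against 8.08, 8.42 and 8.04 in the naive-donor group. Its difference was larger, at 0.46, with more spread (limma adjusted p = 0.174).

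Rad51ap1, which stimulates strand exchange, had 7.47, 7.09 and 7.12 in the UV-donor group, against 6.79, 6.96 and 6.91 in the naive-donor group, a difference of 0.34 (limma adjusted p = 0.197). Rad51c, a strand invasion factor that is also a Fanconi gene, had 7.67, 7.52 and 7.50 in the UV-donor group, against 7.42, 7.47 and 7.15 in the naive-donor group, a difference of 0.22 (limma adjusted p = 0.30). For both genes the groups did not overlap, by a narrow margin for Rad51c. Xrcc3, the partner of Rad51c, had a difference of 0.016 (95% interval -0.11 to 0.14), which turned to -0.0033 with cyclic loess, -0.023 with quantile normalization and -0.0060 without UV-donor array 1.

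Among the Fanconi genes, the core complex and the pair it modifies are given in turn. The core complex is the ubiquitin ligase assembly that marks FANCD2. Of its 6 tested genes, 0 had an unadjusted p under 0.05 (all tested genes 9.6% higher and 5.49% lower). Their median difference was 0.075. Fancl, its catalytic ligase, had the largest, 0.23, with 7.63, 7.30 and 7.59 in the UV-donor group, against 7.23, 7.49 and 7.12 in the naive-donor group, and the groups overlapped. The core subunit genes Fanca (0.10), Fancg (0.092), Fancf (0.059) and Fancc (-0.048) overlapped too. Fance, which contacts FANCD2, differed by 0.0076 (95% interval -0.13 to 0.14), or by -0.016 with cyclic loess and -0.038 with quantile normalization.

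The dim core genes differed more in value. Fancb had 6.87, 6.69 and 6.40 in the UV-donor group, against 6.35, 6.34 and 6.03 in the naive-donor group, a difference of 0.41. Fancm, the translocase that anchors the complex to DNA, had 6.53, 6.46 and 6.25 in the UV-donor group, against 6.06, 6.31 and 6.04 in the naive-donor group, a difference of 0.27. With no dim filter neither was called (limma adjusted p = 0.242 for Fancb and 0.292 for Fancm), though unadjusted p-values were 0.00991 and 0.0197.

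The pair that the core complex modifies had the highest median difference of the roles, 0.54 over its 2 genes. Fancd2 had 8.52, 8.09 and 8.10 in the UV-donor group, against 7.50, 7.83 and 7.50 in the naive-donor group. Every UV-donor array lay above every naive-donor array, and the difference was 0.62 (SE 0.13, 95% interval 0.32 to 0.93, limma adjusted p = 0.127). Without UV-donor array 1 it was 0.48. Fanci had 7.91, 7.44 and 7.50 in the UV-donor group, against 7.14, 7.34 and 7.02 in the naive-donor group, a difference of 0.45 (limma adjusted p = 0.185), also without overlap and with UV-donor array 1 highest. Whether the pair differed more than the core complex was not tested.

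Genes that process the joined DNA molecules were divided. Blm, the helicase that dissolves double junctions, had 8.94, 8.87 and 8.63 in the UV-donor group, against 8.39, 8.57 and 8.39 in the naive-donor group, a difference of 0.36 (SE 0.088, limma adjusted p = 0.152) with no overlap. Eme1, the partner of the nuclease MUS81, had 8.44, 7.97 and 8.07 in the UV-donor group, against 7.55, 7.98 and 7.59 in the naive-donor group. Naive-donor array 2 exceeded the lowest UV-donor array, and the difference was 0.45 (limma adjusted p = 0.213). Mus81 itself had 9.44, 9.48 and 9.50 in the UV-donor group, against 9.58, 9.56 and 9.38 in the naive-donor group, a difference of -0.035 (95% interval -0.18 to 0.11). The nuclease scaffold Slx4 (0.046) and the BLM partner Rmi1 (0.060) overlapped as well. A second Rmi1 probe set, not used in the test, differed by 0.15. Rad18, the ubiquitin ligase that marks the replication clamp at stalled forks, differed by 0.12 (limma adjusted p = 0.375) with overlapping groups.

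Further genes of the same pathways were not called either. Of 46 tested genes on a wider list of recombination, crosslink and checkpoint factors, 43 had higher values, and the median was 0.097. At an unadjusted p under 0.05, 16 were higher, against 9.6% of all tested genes. Limma called 0 of the 46. Rad51b, another strand invasion factor, had the smallest p, with a difference of 0.40 (limma adjusted p = 0.0627), followed by Rpa3, a subunit of the protein that coats single-stranded DNA (0.30, limma adjusted p = 0.146), and Parpbp, which restrains recombination (0.65, limma adjusted p = 0.149). End joining, the repair route that needs no sister chromatid, had a median of 0.065 over 7 tested genes, of which 5 had higher values and 1, Xrcc6, which helps hold broken ends, had an unadjusted p under 0.05 (difference 0.13, limma adjusted p = 0.299). Of 11 listed meiotic recombination genes 3 were bright enough to test, with differences from -0.043 to 0.099.

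List means of DNA copying and cell division genes were highest on the same arrays of each group as those of the repair genes. Each of 21 tested DNA replication genes was higher in value in UV-donor cells, 17 at an unadjusted p under 0.05 (all tested genes 9.6%), with a median of 0.42. The same held for all 19 tested mitosis genes, each at an unadjusted p under 0.05, with a median of 0.53. Limma called 0 of either list at an adjusted p under 0.05. The mean of the replication list, relative to its naive-donor mean, was 0.61, 0.25 and 0.27 on UV-donor arrays 1, 2 and 3, against -0.11, 0.17 and -0.063 on naive-donor arrays 1, 2 and 3. The repair genes gave 0.36, 0.17 and 0.16 in the UV-donor group, against -0.055, 0.11 and -0.058 in the naive-donor group, with the same arrays at the top of each group. Mki67, a marker of dividing cells, differed by 0.47 (limma adjusted p = 0.201). The part of cell division in the repair gene differences was not tested, and a larger share of dividing cells cannot be told apart from more RNA of these genes per cell.

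**Figure D4:**
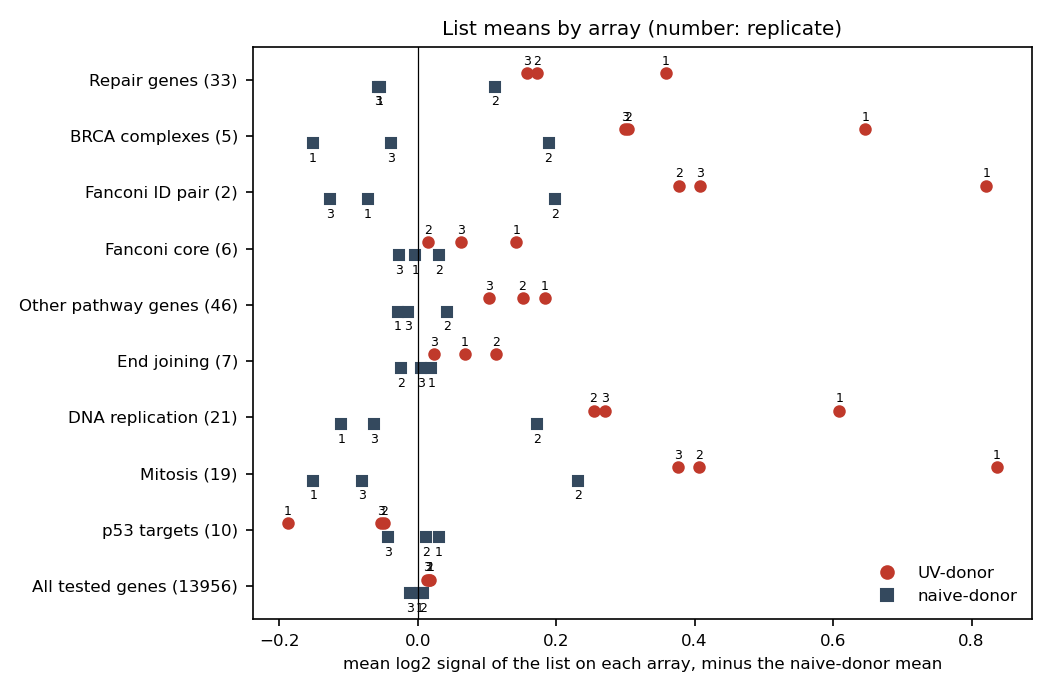
Mean log2 signal of each gene list on each array, minus the list's naive-donor mean (x axis), with the number of tested genes in parentheses and each point numbered by replicate. For repair, replication and mitosis genes alike UV-donor array 1 is highest in its group and naive-donor array 2 is highest in its own, while the all-gene mean lies between -0.011 and 0.018.

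Targets of p53, the damage-responsive factor, had lower values for 8 of 10 tested genes, with a median of -0.12. Limma called 0 of them. At an unadjusted p under 0.05, 3 were lower and 1 higher, against 5.49% and 9.6% of all tested genes. Mdm2, the ligase that degrades p53, differed by -0.22 and Phlda3, an AKT inhibitor, by -0.20, while Rrm2b, a ribonucleotide reductase subunit, differed by 0.17, with limma adjusted p-values from 0.21 to 0.218.

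Some progenitor and neutrophil markers differed between the groups too, while others on both lists differed little. Of 9 tested progenitor markers 8 were higher in value in UV-donor cells, and limma called 1, Ms4a3, higher, while the list's median difference was 0.064. The mean log2 signal of that list was 8.18 to 8.24 across UV-donor arrays, against 7.90 to 7.98 across naive-donor arrays, and every listed progenitor marker was above the dim limit. Of 14 tested neutrophil markers 11 had higher values and 2 were called higher, Ltf and S100a8. The 3 with lower values were Prtn3 (-0.12, without overlap of the groups), Elane (-0.035) and Camp (-0.019), none of them called. Neutrophil list means were 9.05 to 9.22 across UV-donor arrays, against 8.74 to 8.88 across naive-donor arrays. UV-donor array 1 had the lowest mean of the UV-donor arrays for both lists and the highest for the repair genes. Single markers differed in this, and Cd34, Mmp8 and Cxcr2 were among those highest on that array. It also had the highest UV-donor mean for the dendritic cell and eosinophil lists, for which naive-donor array 1 was the highest naive-donor array. For the macrophage, T and NK cell, erythroid and platelet, and stromal and endothelial lists it had the lowest UV-donor mean. For the mast cell and basophil list and the B cell list it lay between the other UV-donor arrays. Limma called 1 of 9 tested macrophage markers (C1qb) and 1 of 11 dendritic cell markers (Cd209a) higher. It called 0 of the 3 mast cell and basophil, 2 eosinophil, 3 B cell, 3 T and NK cell, 6 erythroid and platelet and 6 stromal and endothelial markers tested. Of these, 5 had an unadjusted p under 0.05 in the higher and 2 in the lower direction, against 9.6% and 5.49% of all tested genes. The part of these cells in the repair gene differences was not tested.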

How the data were processed

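The authors deposited log2 signals of 6 Affymetrix Mouse Gene 1.0 ST arrays, 1 value per probe set. RMA, oligo and limma are named without versions in the submitters' processing notes, and the summary level is not given in the sources used here. Values were used as deposited (35556 probe sets, 2.52 to 14.6). Scan batches are not given in the sources used here. Arrays were grouped by their titles.

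Gene names came from the platform annotation: 21789 probe sets had 1 symbol, 1621 several and 12146 none listed. Of those with 1 symbol, 21698 matched RefSeq (GRCm38.p6) by Entrez identifier and 0 symbols changed. The brightest 1-symbol probe set stood for each gene, and genes whose mean over the arrays lay under the 30th percentile (6.58) were dropped. All 33 tested repair genes had a naive-donor mean above that limit. The group difference was fitted with limma (version 3.58.1, R 4.3.3; lmFit, eBayes, two-sided), adjusting by Benjamini-Hochberg over all 13956 tested genes, with an adjusted p under 0.05 as a call. With 3 arrays against 3, an exact permutation test cannot go below p = 0.1. The number of arrays limits the precision.

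Repair genes and lists were chosen with earlier results of these data known, and no list was tested as a set. Other named genes are the 3 (marker lists, 2) of smallest p on each list and a few fixed ones. Some further markers are named for their brightness or direction. Of these, only genes that a result turns on are printed. Alternatives were the replicate block, other dim filters, scalings, variance models and probe set rules, and leaving out each array. Same-numbered arrays deviated from their group means with correlations of -0.13, -0.22 and 0.15. These values cannot show whether such arrays were prepared together, and the main fit did not treat them as paired. Figures used matplotlib 3.10.9.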

Additional observations from a re-analysis of the deposited data

How the results depend on the processing

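No repair gene passed an adjusted p under 0.05 under any of the 16 alternatives run (limma), so their count of calls stayed at 0. The count with higher values at an unadjusted p under 0.05 was 17 (all tested genes 9.6%). It was 11 of 23 tested with the dim filter at the 50th percentile (all tested genes 11.7%). With single arrays left out the count was 12 to 22 (all tested genes 6.79% to 9.49%). Under the other alternatives it was 15 to 19. There the share over all genes or probe sets tested ran from 5.07% (all probe sets tested) to 14.7% (array medians centred). The median difference stayed above 0, from 0.13 to 0.29. Calls over all genes, 24 as deposited, were 43 with array medians centred, 45 with an intensity trend and robust prior, 43 with array weights, 0 with all probe sets tested (limma; an unadjusted p under 0.05 was reached by 1801 higher and 1708 lower) and 1 to 32 with single arrays left out. The causes were not tested. The replicate numbers were not taken to pair the arrays in the main fit. Fitting the replicate block gave 0 calls by limma (an unadjusted p under 0.05 was reached by 1286 higher and 666 lower) and the repair gene count was again 17. Sign changes were limited to 6 repair genes near 0. Xrcc3 was -0.0033 with cyclic loess and -0.023 with quantile normalization, and Fance was -0.016 and -0.038 under the same settings. With single arrays left out Xrcc3 ranged from -0.0060 to 0.052, Fance from -0.023 to 0.046, Mus81 from -0.098 to 0.0030, Slx4 from -0.0014 to 0.078, Rmi1 from -0.0027 to 0.11 and Atm from -0.097 to 0.031.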
